A study of Mus musculus with 105 samples.

Results

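The microRNA family of miR-130 and miR-301, called the miR-130 family here, and that of miR-148 and miR-152, called the miR-148 family, were followed through the labelling and standing small-RNA pools of mouse fibroblasts and embryonic stem cells. The members were the 8 listed mature miRNAs among the 1013 mouse miRNAs of the tables, chosen by name. They were the guide strands mmu-miR-130a-3p, mmu-miR-130b-3p, mmu-miR-301a-3p, mmu-miR-148a-3p, mmu-miR-148b-3p and mmu-miR-152-3p, and the passenger strands mmu-miR-130a-5p and mmu-miR-148b-5p. The prefix, which stands for mouse, is left out below. A further 7 strands of the same families were read as partners only. ESC were embryonic stem cells of the line v6.5, held in medium with LIF and the inhibitors PD0325901 and CHIR99021. CIMEF were mouse embryonic fibroblasts of strain C57BL/6J kept at confluence until contact-inhibited, and DMEF were the same kind of fibroblast still dividing. CIMEF_CyrKO were contact-inhibited fibroblasts whose titles name a knockout of Cyrano, a long noncoding RNA. No mRNA library of the knockout was analysed here, so its Cyrano level was not examined. Cells of the small-RNA libraries received 5-ethynyluridine (5EU), a uridine analogue that enters new RNA and allows its pulldown, for the times given below. The dose was 400 µM in fibroblasts and 125 µM in ESC, and none is given for the mRNA libraries.

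An EU library holds the small RNA pulled down after a given labelling time, and an input library holds the total small RNA of the same culture. Cultures sampled over time gave 7 time courses, with 2 each for ESC, CIMEF and DMEF and 1 for CIMEF_CyrKO. Times ran to 24 h in ESC, 1 week in CIMEF and CIMEF_CyrKO, and 72 h in DMEF. The 0 h libraries, which measure background, belonged to course 1 of each wild-type line. Values are raw read counts, and CPM below means counts divided by all miRNA counts of the same libraries, times 1e+06. Input libraries held 912688 to 9117300 miRNA counts and EU libraries 1196 to 2463188. The 6 mRNA libraries carried their line's markers, with summed embryonic stem cell markers (Pou5f1, Nanog, Sox2, Zfp42, Dppa2, Utf1) of 1726 and 1800 CPM in ESC against 10.8 to 16.4 CPM in fibroblasts. Summed fibroblast markers (Col1a1, Col1a2, Pdgfra, Pdgfrb, Vim, Thy1) were 789 and 873 CPM in ESC, 17493 and 22465 CPM in CIMEF, and 15813 and 15555 CPM in DMEF. Thy1 was an exception, at 36.4 and 1.17 CPM in the CIMEF libraries against 3.37 and 4.25 CPM in ESC. The other fibroblast markers listed were called lower in ESC than in CIMEF. Vim made up most of the ESC sums, at 571 and 605 CPM. Levels are shares of a library, so fewer molecules of a miRNA and more of the others cannot be told apart.

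A miRNA hairpin is cut by Dicer into a duplex of 2 strands. Argonaute keeps the guide and discards the passenger, which is then degraded, so the guide usually dominates the standing pool. The guide recognises messenger RNAs through its seed, bases 2 to 8. The miR-130 family is known for targeting Pparg and TGF-beta signalling genes, and the miR-148 family for targeting DNA methyltransferases.

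The mature sequences show what the 2 families share. They are printed 5′ to 3′ from RefSeq (GRCm38.p6), with the seed in capitals.
miR-130a-3p: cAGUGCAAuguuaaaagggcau
miR-130b-3p: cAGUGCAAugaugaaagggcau
miR-301a-3p: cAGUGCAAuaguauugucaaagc
miR-148a-3p: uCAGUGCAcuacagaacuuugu
miR-148b-3p: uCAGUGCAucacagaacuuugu
miR-152-3p: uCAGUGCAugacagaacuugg
miR-130a-5p: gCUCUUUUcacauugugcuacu
miR-148b-5p: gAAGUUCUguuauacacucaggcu

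All 8 members matched the reference table of 1679 mature miRNAs. The miR-130 family guides share the seed AGUGCAA, found in 7 mature miRNAs (0.417%). The miR-148 family guides share the seed CAGUGCA, found in 3 (0.179%), all of them members. The run CAGUGCA starts at position 1 of miR-130a-3p and position 2 of miR-148a-3p, so the families' 5′ ends are the same 7 bases shifted by 1. Counted from the 5′ end, miR-130a-3p and miR-130b-3p differ by U11A and A13G, and miR-148a-3p and miR-148b-3p by C9U and U10C. Differences this small mean that reads with a sequencing error could pass between close members, and how reads matching several miRNAs were assigned is not given in the sources used here. The passengers hold more uridines than their guides, 10 in miR-130a-5p and 5 in miR-130a-3p, and 8 in miR-148b-5p and 7 in miR-148b-3p.

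The hairpins of the 2 pairs of strands carry most of the results below, and are printed with both mature strands in capitals.
Mir130a: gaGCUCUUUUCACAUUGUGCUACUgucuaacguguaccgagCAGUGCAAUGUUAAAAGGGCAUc
Mir148b: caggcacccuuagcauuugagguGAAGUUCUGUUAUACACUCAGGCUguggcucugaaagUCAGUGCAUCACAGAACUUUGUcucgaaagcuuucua

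Mir130a lies at chr2:84741115-84741178 on the minus strand (GRCm38.p6), with no annotated protein-coding gene spanning it. Mir148b lies at chr15:103285125-103285221 on the plus strand, within Copz1. Mir130b and Mir148a lie within the spans of 2610318N02Rik and Gm38821, whose mRNA was not examined. Mir152 (chr11:96850393-96850465, plus strand) lies within Copz2, and Mir301 (chr11:87113004-87113089, plus strand), the source of miR-301a, lies within Ska2.

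Early after labelling the passenger of miR-130a was about as frequent as its guide in the labelled pool, while it was a small share of the standing pool. At 1 h the passenger made up 41.1% to 55.6% of the miR-130a counts of EU libraries (median 49.1%, 6 courses). The share in EU libraries was 20.9% to 32.3% at 4 h, 2.75% to 6.71% at 24 h and 1.92% to 2.78% at 1 week. In all 47 input libraries the passenger share of miR-130a lay between 0.316% and 3.36% (median 0.937%).

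At 1 h the share of miR-130a-5p was large in stem cells and fibroblasts alike, with both ESC values the highest. It was 55.6% (35 of 63 counts, Wilson 95% interval 43.3% to 67.2%) and 54.5% (72 of 132 counts, 46.0% to 62.8%) in ESC. It was 41.1% (37.9% to 44.4%) and 48.9% (47.2% to 50.7%) in CIMEF, and 44.8% (41.9% to 47.6%) and 49.2% (47.7% to 50.7%) in DMEF. The CIMEF_CyrKO course starts at 2 h, when the share was 32.4%, within the 24.7% to 37.3% of the other 6 courses at that time. Such intervals cover counting error only. The 0 h background libraries did not show this mix. They held 5 passenger counts of 327 (1.53%) in CIMEF, 0 of 18 in DMEF and 0 of 10 in ESC.

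**Figure D1:**
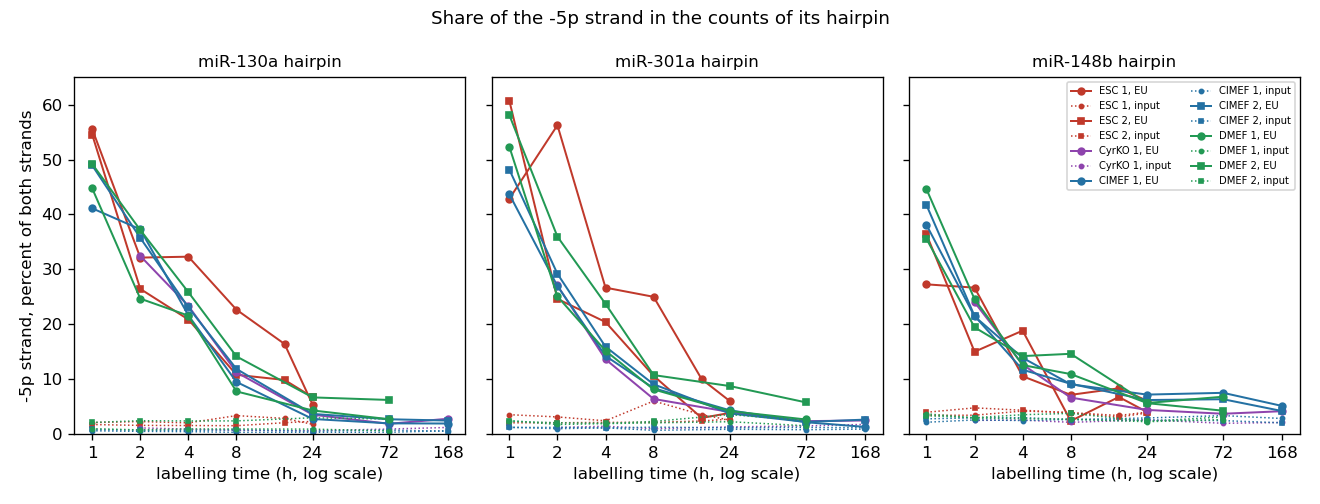
Passenger share of the counts of each hairpin (percent) by labelling time (h, log axis) for miR-130a, miR-301a and miR-148b, with EU libraries as solid and input libraries as dotted lines, 1 line per time course. EU shares start at 41.1% to 55.6% for miR-130a at 1 h and fall with time, while its input shares stay at 3.36% or less.

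The 2 strands of miR-130a took different paths within the same EU libraries. In CIMEF course 2, miR-130a-5p stood at 11505 CPM at 1 h and 338 CPM at 1 week, while miR-130a-3p stood at 12005 and 13389 CPM. In ESC course 2, miR-130a-5p stood at 5481 CPM at 1 h and 389 CPM at 24 h, while miR-130a-3p stood at 4567 and 5407 CPM. Over the 7 courses the last EU level of miR-130a-5p divided by its first was 0.0294 to 0.0774, while the same ratio of miR-130a-3p was 0.892 to 1.71.

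miR-148b behaved in the same direction over a smaller range. Its passenger share in EU libraries was 27.3% to 44.6% at 1 h (median 37.2%), 10.5% to 18.8% at 4 h and 4.03% to 7.19% at 24 h. Input libraries gave 1.96% to 4.77% (median 2.93%). The ESC values at 1 h rest on 3 passenger counts of 11 (27.3%, 9.75% to 56.6%) and 4 of 11 (36.4%, 15.2% to 64.6%), so they do not place ESC apart from the fibroblasts.

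The partner hairpins differed among themselves. For miR-301a the passenger share was 42.9% to 60.7% at 1 h in EU libraries, against 0.687% to 6.02% in input. For miR-148a it was 12.5% to 19.4% at 1 h, against an input median of 0.542%. For miR-152 it was 1.96% to 4.74% at 1 h in the 4 fibroblast courses, against an input median of 0.556%. miR-130b stood apart in its input libraries, where miR-130b-5p made up 10.5% to 33.7% of the hairpin (median 19.5%). Its EU shares at 1 h ran between 0% and 100% because several libraries held only a few counts.

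The ratio of guide to passenger within a library does not depend on how libraries are scaled, and was tested over the 7 courses at 2 h and 4 h. For miR-130a the log2 ratio averaged 1.36 in EU and 6.45 in input, a difference of -5.09 ± 0.85 (SD, n = 7 courses). It was negative in 7 of 7 courses, with values of -4.45 and -4.20 in ESC, -5.17 in CIMEF_CyrKO, -6.39 and -6.00 in CIMEF, and -5.11 and -4.32 in DMEF (exact two-sided sign-flip permutation test, p = 0.0156, the smallest that 7 courses allow). For miR-148b the log2 ratio averaged 2.20 in EU and 4.94 in input, a difference of -2.73 ± 0.31 (SD, n = 7), negative in 7 of 7 courses (the same exact test, p = 0.0156). Both differences exceed the spread between courses.

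A shift of this sign was common among hairpins, and its size set miR-130a apart only by rank. Of 397 hairpins with both strands in the tables, 59 had enough counts, and 40 of these (67.8%) were negative in all 7 courses. Their median difference was -2.11, with quartiles of -3.44 and -1.03. miR-130a ranked 1 of 59 counted from the most negative, miR-301a ranked 7, miR-148a 21 and miR-148b 22. The partner differences were -4.31 ± 0.42 for miR-301a, -2.77 ± 1.14 for miR-148a, -2.03 ± 1.51 for miR-152 and -1.63 ± 1.46 for miR-130b (SD, n = 7 each), of which miR-130b was negative in 6 of 7. A strand with more uridines may take up more 5EU, and the part of the uridine counts in the ratio was not tested.

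**Figure D2:**
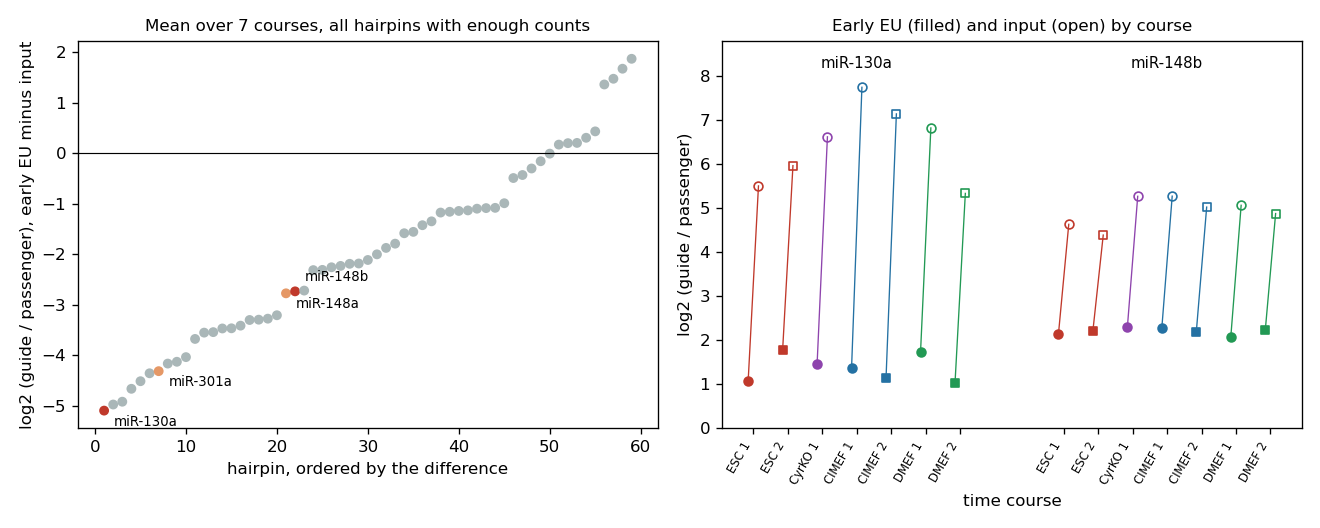
Left, difference of the log2 guide-to-passenger ratio, early EU (2 h and 4 h) minus input, as the mean over 7 courses for each of 59 hairpins. Right, the log2 ratio itself in early EU (filled) and input (open) by time course, for miR-130a and miR-148b. In the left panel miR-130a lies lowest, with a mean of -5.09, and miR-148b has a mean of -2.73.

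Single strands were also compared between early EU and input libraries with edgeR, and both passengers stood well above the median miRNA in every line. Relative to that median, the log2 difference of miR-130a-5p was 2.90 in ESC (2.57 to 3.22 over 12 alternative settings), 4.13 in CIMEF_CyrKO (3.95 to 4.49), 5.21 in CIMEF (4.86 to 5.69) and 3.80 in DMEF (3.48 to 4.19). For miR-148b-5p it was 2.27 in ESC (1.89 to 2.84), 2.99 in CIMEF_CyrKO (2.63 to 3.46), 2.66 in CIMEF (2.08 to 3.13) and 2.55 in DMEF (2.00 to 2.92). The guides lay between -2.95 and 0.26 relative to it.

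Calls against 0 depend on where the scale places that median. TMM placed it at -0.17 in ESC, -1.64 in CIMEF_CyrKO, -1.18 in CIMEF and -0.34 in DMEF. Without CIMEF course 1 it was -1.84 in ESC, -0.11 in CIMEF_CyrKO, 0 in CIMEF and -0.11 in DMEF, and without DMEF course 1 it was -1.86, -0.11, -0.16 and -0.11 in the same lines. With no filter on low counts it was -2.18 in ESC. Every value of a single strand moves with it, so the differences and calls below hold for the TMM scale over all 7 courses. The log2 difference of miR-130a-5p on that scale was 2.72 (SE 0.74) in ESC, 2.49 (SE 1.03) in CIMEF_CyrKO, 4.03 (SE 0.78) in CIMEF and 3.45 (SE 0.76) in DMEF. It passed at an adjusted p of 0.05 in CIMEF (edgeR, adjusted p = 0.0054) and DMEF (edgeR, adjusted p = 0.026). That of miR-148b-5p was 2.09, 1.36, 1.48 and 2.21 in the same lines and passed in none.

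In CIMEF 1 member was higher in EU, against 6.07% of the 675 miRNAs tested, and the 6 guides were lower, against 17.9%, a count that was 0 or 1 when any 1 of the 6 wild-type courses was left out, where 4.91% to 11.7% of all were lower. In DMEF 1 member was higher, against 2.67%, and 0 were lower, against 3.11%; the call was lost without either DMEF course (3.43 and 3.88). In CIMEF_CyrKO 0 were higher, against 0.593%, and 1 was lower (miR-130a-3p, -2.68, edgeR adjusted p = 0.048), against 8.89%. In ESC no member passed with edgeR, where 0.889% of all miRNAs were higher and 0% lower, although 3 members had an unadjusted p under 0.05 and DESeq2 called 2 higher and 2 lower, against 5.33% and 4.6% of all.

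EU and input libraries of a course come from the same RNA, and the fit with the course as a block called more members and more of all miRNAs. In ESC it called 2 members higher and 3 lower, against 10.2% and 9.63% of all miRNAs. In CIMEF_CyrKO it called 2 higher and 6 lower, against 8.15% and 43.6%. In CIMEF it called 2 higher and 6 lower, against 14.1% and 44%. In DMEF it called 2 higher and 3 lower, against 13.8% and 26.4%. The 2 members called higher in each line were miR-130a-5p (2.73, 2.49, 4.23 and 3.57) and miR-148b-5p (2.06, 1.36, 1.47 and 2.21). Scaling by total counts kept both passengers higher and moved 3 CIMEF guides to the other side of 0, with log2 differences of 0.094 for miR-148a-3p, 0.084 for miR-148b-3p and 0.18 for miR-152-3p.

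The EU minus input difference was also compared between lines. Without the block edgeR called 0 of 8 members in each of the 3 comparisons, against 0.593% of all miRNAs at most, and 1 member had an unadjusted p under 0.05 (miR-148a-3p in ESC against CIMEF). With the course as a block, 3 members were higher in ESC against CIMEF, against 17.3% of all miRNAs, and 1 was lower, against 2.22%. Those higher were miR-130b-3p (2.16, edgeR adjusted p = 0.0038), miR-148a-3p (1.51, edgeR adjusted p = 0.0023) and miR-148b-3p (1.25, edgeR adjusted p = 0.022), where the median of all miRNAs was 0.86. The one lower was miR-130a-5p (-1.50, edgeR adjusted p = 0.0038), which DESeq2 also called (-2.81, adjusted p = 0.032), against 2.3% of all lower and 1.64% higher. Relative to the median of all miRNAs, miR-130a-5p lay at -2.23 without the block and at -2.79 to -1.97 over the 12 alternatives, while that median itself ran from -1.70 to 0.89 over them. In CIMEF against DMEF the block gave 0 members higher, against 0.296% of all, and 1 lower (miR-130b-3p, -2.48, edgeR adjusted p = 0.00040), against 11.1%. In ESC against DMEF it gave 0 of 8, against 3.26% higher and 0.593% lower. Both block calls of miR-130b-3p rest on few early EU counts and were absent without the block. Its counts were 16 and 2 in the CIMEF courses, 7 and 30 in those of ESC, and 30 and 75 in those of DMEF.

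On the scale used, guides approached their labelled plateau over many hours and the member passengers within a few, while the partner passengers were mixed. Half-lives were fitted per course from EU counts relative to the 22-, 24- and 26-nt synthetic standards. The hours depend on that scale, and the 95% intervals do not cover its choice. With the ligation standard, another set of spiked-in RNAs, miR-130a-3p in DMEF course 2 had 1.34 h in place of 9.46 h. miR-148a-3p had 12.7 h in place of 63.9 h in CIMEF course 1, and 81.2 h in place of 14.8 h in ESC course 1. Both member passengers then lay at the shortest value allowed, 0.25 h, in every course with a value. The passenger miR-130a-5p had half-lives of 0.632 h in CIMEF_CyrKO, 1.56 h (95% interval 0.920 to 2.54 h) and 1.15 h (0.618 to 1.87 h) in CIMEF, and 0.556 h and 0.282 h in DMEF. In ESC it was at or under the shortest value the fit allows, 0.25 h, with upper bounds of 0.909 h and 0.571 h. The passenger miR-148b-5p had 0.474 h in CIMEF_CyrKO, 5.39 h and 2.33 h in CIMEF, and 0.388 h and 0.396 h in DMEF. Counts were too few for a value in ESC. The partner passenger miR-301a-5p gave 1.95 h and 1.63 h in CIMEF and was at the 0.25 h limit in the other 4 courses with a value. The lower bounds of most of these passenger intervals lie at that limit, so these are mainly upper limits. The partner passenger miR-130b-5p was slower, at 3.19 and 5.26 h in ESC and 7.75 and 8.91 h in DMEF. In DMEF course 2 its interval of 5.30 to 15.9 h overlapped the 6.47 to 22.8 h of miR-130b-3p. miR-152-5p had 0.920 h in CIMEF_CyrKO and 7.02 h in CIMEF course 2. The only value of miR-148a-5p, in CIMEF course 2, was at the 0.25 h limit.

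The guides were slower. In ESC course 2, DMEF course 1 and DMEF course 2, miR-130a-3p had 9.61 h (4.99 to 31.5 h), 23.7 h (13.6 to 54.8 h) and 9.46 h (5.98 to 15.6 h). In CIMEF_CyrKO it had 28.9 h (19.0 to 46.9 h) and in CIMEF course 2 74.6 h (42.0 to 220 h). In ESC course 1 no plateau was reached and only a lower bound of 12.7 h could be given, and in CIMEF course 1 the fitted 1347 h lies far beyond the last time, with a lower bound of 116 h. miR-301a-3p had 19.1 h in ESC course 2, 19.4 h in CIMEF_CyrKO, 95.1 h in CIMEF course 2, and 25.7 and 10.7 h in DMEF, and only lower bounds of 23.9 h in ESC course 1 and 130 h in CIMEF course 1. miR-130b-3p, with few counts, had 15.3 h in ESC course 2 and 27.8 and 11.6 h in DMEF. The miR-148 family guides lay closer together. miR-148a-3p had 14.8 and 8.52 h in ESC, 6.72 h in CIMEF_CyrKO, 63.9 and 24.2 h in CIMEF, and 14.1 and 11.1 h in DMEF. miR-148b-3p had 12.9 and 10.1 h in ESC, 10.4 h in CIMEF_CyrKO, 46.9 and 27.6 h in CIMEF, and 12.3 and 8.91 h in DMEF. miR-152-3p had 7.84 h in CIMEF_CyrKO, 52.4 and 24.7 h in CIMEF, and 10.7 and 8.91 h in DMEF, and too few counts in ESC.

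Set against the median over all miRNAs of the same course, the guides lay on both sides. Those medians were 8.66 and 8.52 h in ESC, 16.3 h in CIMEF_CyrKO, 58.5 and 32.6 h in CIMEF, and 11.9 and 8.91 h in DMEF. In CIMEF_CyrKO all 3 miR-148 family guides, at 6.72 to 10.4 h, were under the median of their course, and in CIMEF course 2 they were too, at 24.2 to 27.6 h.

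The slower one was the miR-130 family in 5 of 7 courses, where every miR-130 family guide with a value had a longer half-life than every miR-148 family guide. Guides with no plateau were counted as longer, and in each of these 5 courses the 95% interval of at least 1 guide of each family overlapped that of the other. In CIMEF course 2, miR-130a-3p and miR-301a-3p had 74.6 and 95.1 h, against 24.2 to 27.6 h for the miR-148 family guides. In CIMEF_CyrKO they had 28.9 and 19.4 h, against 6.72 to 10.4 h. The families overlapped in ESC course 2 and DMEF course 2. The count of separated courses was 3 to 6 of 7 under other ways of scaling and fitting, and the order is given as a description, with no test.

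**Figure D3:**
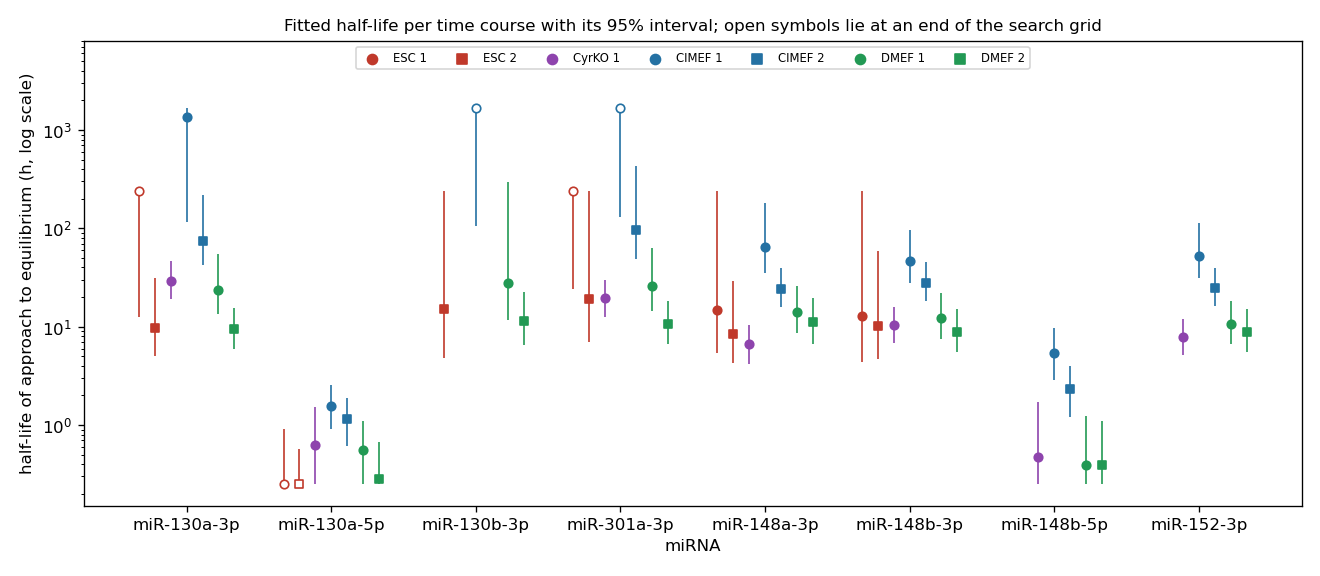
Fitted half-lives (h, log axis) of the members in each time course with 95% intervals, limits drawn as open symbols. The passengers lie at 5.39 h or less and the guides at 6.72 h or more.

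Within a course, the guide of miR-130a outlasted its passenger by 45.7-fold in CIMEF_CyrKO, 862-fold and 65.01-fold in CIMEF, and 42.7-fold and 33.6-fold in DMEF. The mean log2 ratio was 6.35 ± 1.93 (SD, n = 5 courses). Without CIMEF course 1 it was 5.50 ± 0.39. The 862-fold rests on the fitted 1347 h, which was 142 h with 0 h not subtracted and 173 h without the 1 h library. In CIMEF_CyrKO and both DMEF courses the passenger intervals of miR-130a-5p and miR-148b-5p start at the 0.25 h limit. The folds of these courses thus have no upper bound. For miR-148b the folds were 22.0 in CIMEF_CyrKO, 8.71 and 11.9 in CIMEF, and 31.6 and 22.5 in DMEF, with a mean log2 ratio of 4.13 ± 0.76 (SD, n = 5). Both ratios were positive in 5 of 5 courses, and the exact sign-flip permutation p of 0.0625 is the smallest that 5 courses allow, so this design cannot reach 0.05.

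Half-lives were compared between lines with limma over the 50 miRNAs with a value in all 6 wild-type courses, which include 2 members. These half-lives describe the approach to the labelled plateau. Decay of a miRNA and its dilution in dividing cells were not separated, so the values are not decay rates alone. Both were shorter in ESC than in CIMEF, by a log2 difference of -1.81 for miR-148a-3p (limma, adjusted p = 0.023) and -1.66 for miR-148b-3p (limma, adjusted p = 0.035), where 92% of all miRNAs were shorter and the median was -3.32. Both were longer in CIMEF than in DMEF, by 1.65 (limma, adjusted p = 0.044) and 1.78 (limma, adjusted p = 0.031), where 74% of all were longer and the median was 2.49. The 2 members thus moved less than the median miRNA in both contrasts. Between ESC and DMEF the differences were -0.16 and 0.13 (SE 0.77 each), and neither passed, nor had an unadjusted p under 0.05, while 4% of all were shorter. The SE was 0.77 for both members in every contrast, since limma pooled 1 variance over all 50 miRNAs. The miRNAs of a course shift together, as in the CIMEF course medians of 58.5 and 32.6 h, and are not independent. These p-values thus do not measure the spread between the 2 courses of a line. The calls depend on single courses. Without CIMEF course 1 or without ESC course 2 neither member passed between ESC and CIMEF, with -1.11 and -1.28 without CIMEF course 1. Without CIMEF course 1 or DMEF course 2 neither passed between CIMEF and DMEF. Scaled to the ligation standard, the ESC minus CIMEF differences were 0.82 and 0.24.

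The standing levels separated the lines by miR-152-3p above all. The guide miR-152-3p stood at 29.2 and 39.9 CPM in the 2 ESC courses, against 3269 and 3441 CPM in CIMEF and 1980 and 1314 CPM in DMEF. No library of the ESC courses exceeded 43.5 CPM and no fibroblast library fell under 1218 CPM. These libraries are time points of the same courses and not replicates, and the share of all miRNAs with such a gap was not counted. The log2 difference between ESC and CIMEF was -7.28 (SE 0.52, edgeR adjusted p = 0.00032) and between ESC and DMEF -5.84 (SE 0.49, edgeR adjusted p = 0.00051). It kept its call in all 11 alternative settings of each contrast, with values of -7.66 to -6.60 and -6.38 to -5.36.

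miR-130b-3p went the other way. It stood at 1384 and 1378 CPM in ESC, against 223 and 34.8 CPM in CIMEF and 182 and 345 CPM in DMEF. The ESC libraries started at 1002 CPM and no wild-type fibroblast library exceeded 385 CPM, again over time points of the same courses. The log2 difference between ESC and CIMEF was 2.76 (SE 0.91, edgeR adjusted p = 0.043) and between ESC and DMEF 2.18 (SE 0.89, edgeR adjusted p = 0.094). The 2 CIMEF courses differed from each other, and the first of these values was 4.65 without CIMEF course 1 and 2.01 without CIMEF course 2. Its call was lost without either ESC course or either DMEF course, with values of 2.70 to 2.79. The passenger miR-130b-5p averaged 404 ± 59.6 CPM over the ESC courses, 25.5 ± 26.7 CPM over those of CIMEF and 84.4 ± 62.9 CPM over those of DMEF (SD, n = 2 each).

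miR-130a-3p was the most abundant member in each course, ranking between 16 and 26 among all miRNAs. It stood at 9862 and 11785 CPM in ESC, 11312 CPM in CIMEF_CyrKO, 11912 and 17792 CPM in CIMEF, and 11118 and 9681 CPM in DMEF. Every library of CIMEF course 2 held 15864 CPM or more, above the libraries of all other courses, which held 14743 CPM or less. miR-301a-3p stood at 1521 and 2592 CPM in ESC, 2642 CPM in CIMEF_CyrKO, 3537 and 3927 CPM in CIMEF, and 2718 and 3113 CPM in DMEF. Both were called lower in ESC than in CIMEF, by -1.14 (SE 0.33, edgeR adjusted p = 0.029) for miR-130a-3p and -1.54 (SE 0.37, edgeR adjusted p = 0.015) for miR-301a-3p. Scaling by total counts left -0.46 and -0.86 with no call. TMM placed the median of all miRNAs at 0.43 in this contrast and total counts placed it at 1.10. The miR-130a-3p call was also lost without ESC course 1, ESC course 2, CIMEF course 2 or DMEF course 1 (-1.25 to -0.77), and that of miR-301a-3p without ESC course 1 (-1.22).

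The other 4 members passed in neither ESC contrast. miR-148a-3p stood at 1375 to 1751 CPM in ESC, 1455 to 1729 CPM in CIMEF and 1003 to 1046 CPM in DMEF, and miR-148b-3p at 1157 ± 59.5, 1123 ± 59.5 and 814 ± 57.7 CPM in the same order (SD, n = 2 courses). For miR-148b-5p the mean was 47.5 ± 3.33 CPM in ESC, 30.4 ± 1.56 CPM in CIMEF and, in DMEF, 25.04 ± 0.23 CPM (SD, n = 2). For miR-130a-5p it was 217 ± 6.37 CPM in ESC, 91.0 ± 41.7 CPM in CIMEF and, in DMEF, 172 ± 112 CPM (SD, n = 2).

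In all, 1 of 8 members was higher and 3 lower in ESC than in CIMEF, where 27.3% and 29.2% of the 812 tested miRNAs were. In ESC against DMEF 0 were higher and 1 lower, against 22.8% and 25% of all miRNAs. Without ESC course 1 only miR-152-3p remained among those lower than in CIMEF. Between CIMEF and DMEF edgeR called 0 of 8 members and 0% of all 812 miRNAs. There 4 members and 158 miRNAs had an unadjusted p under 0.05, and DESeq2 called 110 miRNAs (8.85% higher and 5.26% lower). Its 2 members, both higher in CIMEF, were miR-152-3p (1.36, DESeq2 adjusted p = 0.014) and miR-148b-3p (0.81, DESeq2 adjusted p = 0.024). The edgeR values were 1.44 (SE 0.40, adjusted p = 0.14) and 0.90 (SE 0.36, adjusted p = 0.26). Without CIMEF course 1 edgeR called 2 members higher and 1 lower, against 10.6% and 15.2% of all miRNAs.

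**Figure D4:**
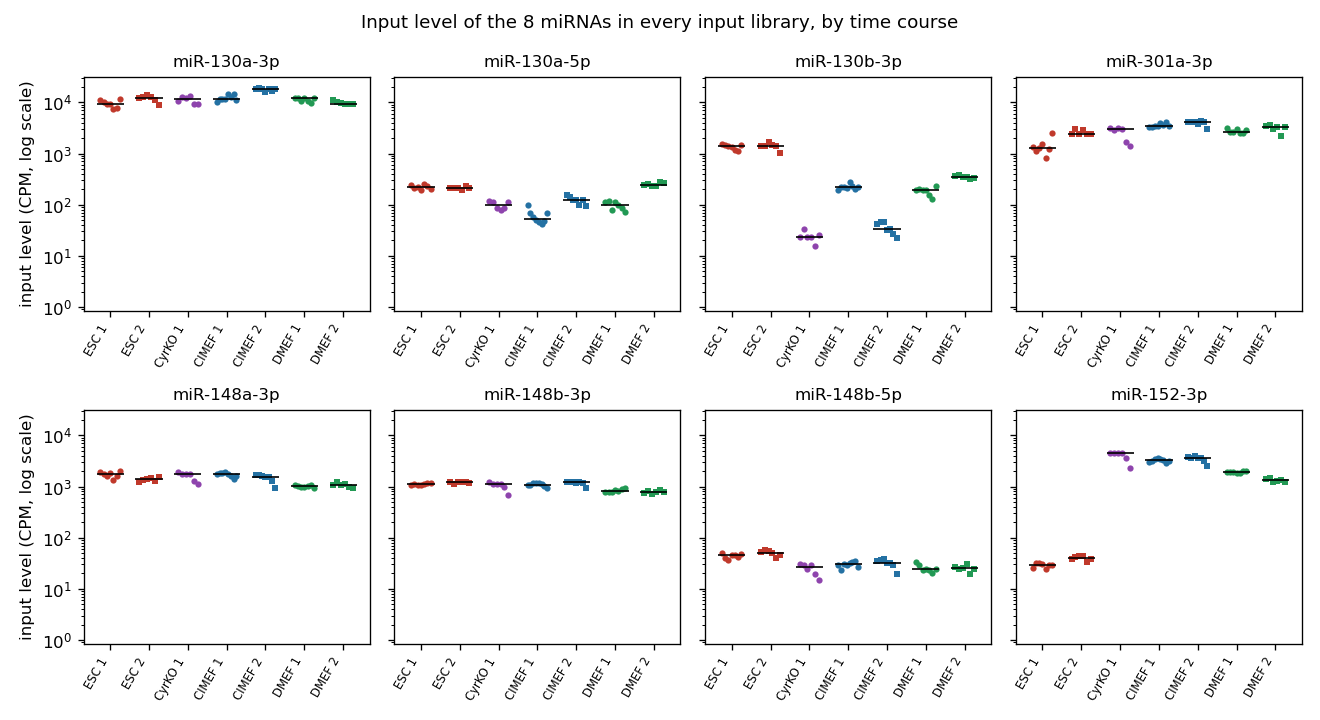
Input level (CPM, log axis) of each member in every time course, with ESC left of the fibroblast lines. miR-152-3p lies at 29.2 and 39.9 CPM in ESC and at 1314 CPM or more elsewhere, and miR-130b-3p lies highest in ESC.

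The make-up of the 2 families changed with these members. miR-152-3p was 1.01% and 1.53% of the miR-148 family guides in ESC, 60.1% in CIMEF_CyrKO, 53.8% and 56.8% in CIMEF, and 51.6% and 41.9% in DMEF. The family sum was 2895 and 2614 CPM in ESC, 6745 CPM in CIMEF_CyrKO, 6080 and 6062 CPM in CIMEF, and 3837 and 3133 CPM in DMEF. miR-130b-3p was 10.8% and 8.75% of the member guides of the miR-130 family in ESC, against 0.160% to 2.63% in the fibroblast courses. The sum of these member guides lay between 12767 and 21754 CPM in all courses, and miR-130a-3p supplied 73.7% to 81.8% of it. That sum leaves out the partner strand miR-301b-3p, which was at 298 and 515 CPM in ESC and 6.43 CPM in CIMEF_CyrKO. It was at 51.3 and 10.0 CPM in CIMEF, and 36.1 and 109 CPM in DMEF.

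The Cyrano knockout changed no member past the test. Input levels in CIMEF_CyrKO were 24.3 CPM for miR-130b-3p, against 223 and 34.8 CPM in CIMEF, and 4052 CPM for miR-152-3p, against 3269 and 3441 CPM. The log2 differences between CIMEF_CyrKO and CIMEF were -2.27 (SE 1.17, edgeR adjusted p = 0.58) for miR-130b-3p, 0.39 (SE 0.48) for miR-152-3p, -0.38 (SE 0.45) for miR-301a-3p and -0.28 (SE 0.41) for miR-130a-3p. Of 8 members 0 were called by edgeR or DESeq2. An unadjusted p under 0.05 was found for 0 members with edgeR and 1 with DESeq2. Over all miRNAs edgeR called 0.862% of 812 miRNAs higher and 0% lower and gave 89 an unadjusted p under 0.05. In EU libraries edgeR called 0 of 8 members and 0% of 606 miRNAs, with 0 and 30 at an unadjusted p under 0.05, and DESeq2 called 0 members and 8 miRNAs. There miR-301a-3p differed by -0.99 (SE 0.45, edgeR adjusted p = 0.72). Without CIMEF course 2 edgeR called 1 member lower in input, against 15.3% of all miRNAs lower and 5.38% higher, and 1 lower in EU libraries, against 15.7% lower and 2.17% higher. With 1 knockout course the spread is that of the other lines.

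Over the labelling time 3 slopes of input levels passed the test, each in 1 line. Each input library entered this fit singly, although time points of a course are not independent cultures. The p-values thus treat repeated sampling of a course as replication. The slope per doubling of hours + 1 was -0.05 (SE 0.02, edgeR adjusted p = 0.021) for miR-148a-3p in CIMEF, -0.14 (SE 0.04, edgeR adjusted p = 0.029) for miR-301a-3p in CIMEF_CyrKO and 0.05 (SE 0.02, edgeR adjusted p = 0.038) for miR-148b-3p in DMEF. These were the only edgeR calls among the 8 members, where 12.2% of miRNAs fell and 13.7% rose in CIMEF, 6.33% fell and 12.1% rose in CIMEF_CyrKO, and 12.4% fell and 9.68% rose in DMEF. In ESC 0 members passed with edgeR or DESeq2, 1 had an unadjusted p under 0.05 (miR-130b-3p, -0.07), while 3.45% of all miRNAs rose and 0.691% fell. None of the 3 calls was kept under every alternative, and without CIMEF course 2 or DMEF course 1 the line's call was lost.

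Transcripts around the hairpins were read from the poly(A) mRNA libraries. Copz2, which spans Mir152 and encodes a zeta subunit of the coatomer, was at 1.36 and 1.503 CPM in ESC, 45.9 and 45.4 CPM in CIMEF, and 32.8 and 37.5 CPM in DMEF. The log2 difference was -5.16 (SE 0.19, edgeR adjusted p = 3.5e-06) between ESC and CIMEF and -4.96 (SE 0.19, edgeR adjusted p = 3.5e-06) between ESC and DMEF. It lay in the same direction as that of miR-152-3p, which was -7.28 and -5.84.

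Ska2, which spans Mir301 and encodes a spindle and kinetochore protein, was at 37.4 and 40.8 CPM in ESC, 75.9 and 64.04 CPM in CIMEF, and 47.5 and 61.3 CPM in DMEF. It fell by 1.01 on the log2 scale in ESC against CIMEF (edgeR adjusted p = 0.0012) and by 0.82 against DMEF (edgeR adjusted p = 0.0041), the second lost without ESC mRNA library 1. Copz1, which spans Mir148b and encodes the other zeta subunit, was at 240 and 246 CPM in ESC, 137 and 130 CPM in CIMEF, and 108 and 122 CPM in DMEF, higher in ESC by 0.69 (SE 0.12) and 0.74 (SE 0.12), both past the test. In ESC against CIMEF 1 of 3 host genes was higher and 2 lower, against 38.2% and 37.7% of 18094 genes, and in ESC against DMEF the counts were the same, against 30.3% and 30.5%. In CIMEF against DMEF 0 of 3 passed, where 19.5% and 21.1% of genes did. In ESC against CIMEF and against DMEF, miR-301a-3p differed by -1.54 and -0.74, the direction of Ska2, with a call only against CIMEF. miR-148b-3p differed by -0.64 and 0.26 with no call, so against CIMEF its sign was opposite to that of Copz1.

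**Figure D5:**
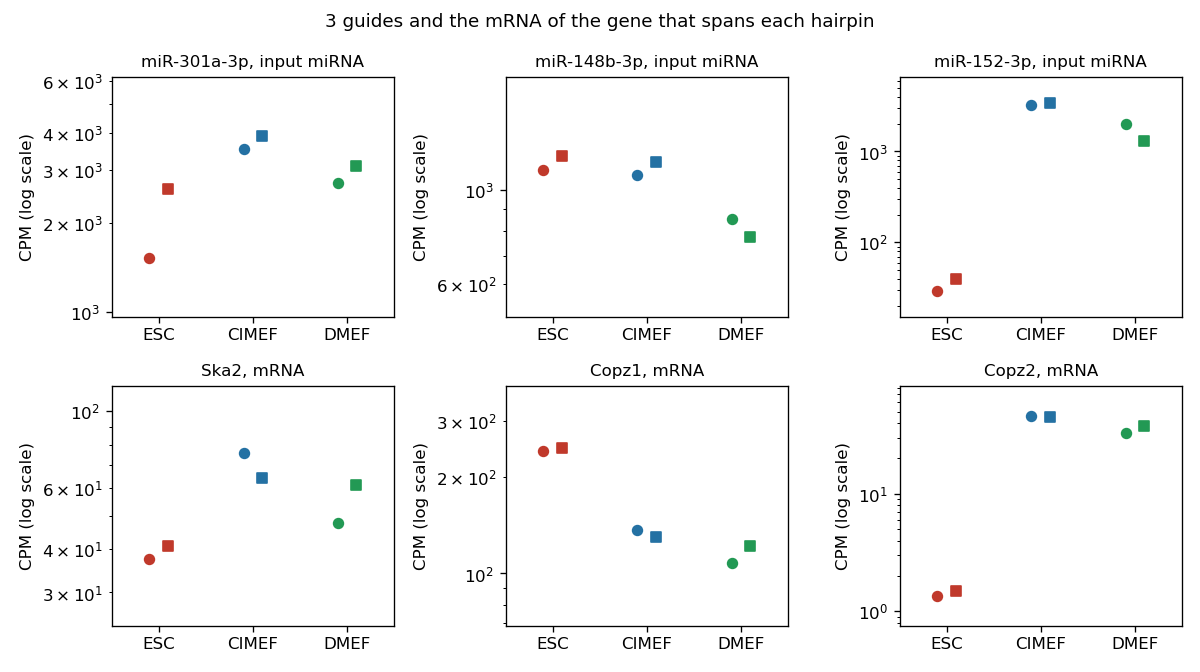
Levels (CPM, log axes) of 3 guides in the input courses, upper row, and of the mRNA of the gene spanning each hairpin, lower row, 1 point per course or library, with ESC, CIMEF and DMEF from left to right. Copz2 and miR-152-3p are both lowest in ESC, at 1.36 to 1.503 CPM and 29.2 to 39.9 CPM.

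Genes known as targets of either family were counted, with no test of the list. Among 19 miR-130 family targets, ESC had 2 higher and 15 lower than CIMEF (median -3.10, against 0.06 over all genes), where 38.2% and 37.7% of all genes were. Against DMEF it had 2 higher and 14 lower (median -2.02), where 30.3% and 30.5% of all genes were. The count of 2 higher against DMEF was 0 without either ESC library and 1 without either DMEF library. Those with the largest differences in ESC against CIMEF were Ppargc1a (-6.53), a co-activator of mitochondrial genes, Tgfbr2 (-6.35), a TGF-beta receptor, and Meox2 (-5.96), a homeobox factor. Tgfbr2 was at 3.41 and 5.58 CPM in ESC, 249 and 399 CPM in CIMEF, and 137 and 175 CPM in DMEF. In ESC against DMEF they were Csf1 (-7.03), a macrophage growth factor, Pparg (-5.75), the master regulator of fat cells, and Tgfbr2 (-5.47). In CIMEF against DMEF, 6 were higher and 5 lower, where 19.5% and 21.1% of all genes were.

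Among 18 miR-148 family targets, ESC had 6 higher and 10 lower than CIMEF (median -1.35), against the same 38.2% and 37.7% of all genes, and 3 higher and 11 lower than DMEF (median -1.18), against 30.3% and 30.5%. Dnmt3b, a de novo DNA methyltransferase, was at 178 and 176 CPM in ESC, 3.96 and 4.21 CPM in CIMEF, and 2.58 and 4.05 CPM in DMEF, a log2 difference of 5.27 (SE 0.23) and 5.39 (SE 0.23). Dnmt1, the maintenance methyltransferase, was at 600 and 616 CPM in ESC, 339 and 320 CPM in CIMEF, and 431 and 443 CPM in DMEF. Its log2 difference was 0.71 (SE 0.13, edgeR adjusted p = 0.0017) between ESC and CIMEF and 0.13 (SE 0.12, edgeR adjusted p = 0.40) between ESC and DMEF, and it was named after its values were seen. Wnt10b, a Wnt ligand, was lower in ESC by -6.22 and -6.42, and Itgb8, an integrin subunit, by -6.50 in ESC against CIMEF. Both were low in ESC, at 0.155 and 0.258 CPM for Wnt10b and 0.194 and 0.301 CPM for Itgb8. In CIMEF against DMEF, 7 were higher and 6 lower, against 19.5% and 21.1%, led by Inhbb (-4.48), a subunit of inhibins and activins, which was at 2.54 and 4.78 CPM in CIMEF and 62.5 and 81.4 CPM in DMEF. The lists share 4 genes. The part of the miRNAs in these differences was not tested.

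The miRNAs most like 2 members over the 7 courses were named from 811 compared, by Pearson's r of log2(CPM + 1), as a description. For miR-148a-3p they were miR-708-5p (0.877), miR-450b-5p (0.875) and miR-708-3p (0.865). miR-708-5p stood at 1423 and 1528 CPM in ESC, 2425 CPM in CIMEF_CyrKO, 690 and 656 CPM in CIMEF, and 55.9 and 22.0 CPM in DMEF. For miR-130a-3p they were miR-490-3p (0.952), miR-326-3p (0.949) and miR-3083-5p (0.936), of which miR-490-3p and miR-3083-5p stayed under 1 CPM in every course. The courses of a line share their cells, so these values are no measure of independent samples.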

How the data were processed

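Small RNA of EU and input libraries and poly(A) mRNA were analysed from tables of raw read counts that the authors deposited without normalization, with a row for each mature miRNA or each gene. The series holds 105 samples, and all 100 columns of the tables were used, with 0 left out. The submitters' processing notes name cutadapt for all samples, and for 81 of them also STAR 2.4, HTSeq 0.9.1 and mm10/GRCm38. Whether duplicate reads were removed is not given in the sources used here. In DMEF course 2, 5 EU columns match 2 sequencing runs each and were taken as 1 library each. Of 54532 gene identifiers, 54409 were paired with a symbol.

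Counts were summed per time course for standing levels and over 2 h and 4 h for early EU levels, so that courses were the replicates, and were tested with edgeR 4.0.16 (TMM, expression filter, quasi-likelihood test, two-sided, Benjamini-Hochberg over all features, threshold 0.05) in R 4.3.3. The labels do not say that courses are separate animals, so p-values measure only the spread between these courses or libraries. Those of limma rest on a variance pooled over miRNAs and do not measure that spread. EU and input libraries of a course are paired, since the protocols take both from the same RNA: the guide-to-passenger ratios were tested within courses, while edgeR's comparison of single strands had no block in its main form and the course as a block in an alternative given beside it. DESeq2 1.42.0 was an alternative. Drift was the slope on log2(hours + 1) over single input libraries, whose time points are not independent cultures. Half-lives were fitted as y = A(1 - exp(-kt)) by weighted least squares with a noise of 0.2 over a grid of 400 values from 0.25 h to 10 times the last time, at 4 or more times with at least 10 counts, and compared with limma 3.58.1. The scale was the summed 22-, 24- and 26-nt standards, whose role the labels do not state. The amounts of standards differed greatly between courses, so the 0 h background was subtracted only in courses with their own 0 h library. Ratios used a pseudocount of 0.5. Intervals are at 95%, Wilson for shares, and a count of 0 allows up to 3 counts.

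All 8 members are reported. Named likenesses are the 3 highest r, and named targets the 3 largest differences past the test per list, with Dnmt1 added after its values were seen. The members, lists and tests were chosen with earlier results of these data known.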

Additional observations from a re-analysis of the deposited data

Results flagged for a closer look

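Among 56 series of 4 to 10 input libraries examined for a library far from the others of its course, 3 values stood apart, where chance gives about 1 in 20. miR-130b-3p was at 282 CPM in CIMEF course 1 at 8 h, the highest of its course, where the median of the other libraries was 218 CPM. miR-301a-3p was at 3032 CPM in CIMEF course 2 at 1 week, the lowest, where the median of the others was 4109 CPM. miR-148b-3p was at 946 CPM in the same library, the lowest, where the median of the others was 1207 CPM. The number of values is close to what chance gives, and no cause was tested.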

How the results depend on the processing

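Counts below are members called (of 8), higher or lower. Among the standing levels, DESeq2 called 2 higher in ESC against DMEF and 2 higher in CIMEF against DMEF. The replicate block gave 2 lower in ESC against DMEF, 0 higher in ESC against CIMEF and, by course number, changed no other call of a standing level by over 1.5 times. Total-count scaling left 1 lower in ESC against CIMEF. Course numbers do not pair the samples, since deviations of same-numbered input courses correlated by 0.105, 0.0748 and 0.248 between pairs of lines, and those of mRNA libraries by 0.0077, -0.0146 and 0.0635. Fitted library by library, with time points standing in for replicates, the knockout had 4 lower in input and 3 lower in EU libraries. Leaving out a course gave 0 to 1 higher in ESC against DMEF, 0 to 1 higher and 1 to 3 lower in ESC against CIMEF, 0 to 2 higher and 0 to 1 lower in CIMEF against DMEF, and 0 to 1 lower in the knockout for input and for EU.

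For drift, the CIMEF counts were 1 higher without the last time, 2 lower without 0 h and 0 lower with standards as the scale. CIMEF_CyrKO had 0 lower without the last time, 0 with standards and 4 with total counts. DMEF had 0 higher without the last time, without 0 h, without the filter, with standards and with total counts, and ESC had 1 lower without the last time. Leaving out a course gave 0 to 2 lower in CIMEF and 0 to 1 higher in DMEF.

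For early EU against input, CIMEF had 2 higher under DESeq2, no filter, total counts, 2 h alone, 4 h alone and the replicate block, and 1, 1, 0, 1 and 0 lower under the first 5 of these. Under total counts miR-148a-3p (0.094), miR-148b-3p (0.084) and miR-152-3p (0.18) changed sign; the scale alone shifts all miRNAs there. CIMEF_CyrKO had 2, 1, 2, 2, 1 and 2 higher under the same 6 settings, and 0 lower under no filter, total counts, 2 h and 4 h and 6 under the block. DMEF had 2 higher under DESeq2, total counts, 2 h and the block, and 3 lower under the block. ESC had 2 higher under DESeq2, 1 under total counts and 2 under the block, and 2, 6, 1, 3, 2 and 3 lower under the 6 settings. Leaving out a course gave between 1 and 2 members higher and at most 1 lower (lowest 0) in CIMEF, while CIMEF_CyrKO ranged over 0 to 2 in either direction. The same gave 0 to 2 higher with 0 to 1 lower for DMEF, and 0 to 1 higher with 0 to 6 lower for ESC. For the differences between lines, ESC against CIMEF had 1 lower under DESeq2, no filter and the replicate block and 3 higher under the block, and CIMEF against DMEF had 1 lower under the block. Without a course, 0 to 1 were lower in ESC against CIMEF and 0 to 2 in ESC against DMEF.

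For half-lives, ESC against CIMEF had 0 shorter with times up to 24 h, equal weights, total EU counts and the ligation standard, the last with miR-148a-3p at 0.82 and miR-148b-3p at 0.24. CIMEF against DMEF had 1 longer with times up to 24 h, 0 with equal weights, total EU counts and the ligation standard, and 6 when fitted without ESC, an alternative added after seeing the data, which lets 172 miRNAs enter. Leaving out a course gave 0 to 2 shorter and 0 to 3 longer in these contrasts. Guide-to-passenger half-life ratios could not be had with the ligation standard. Among host and target mRNAs, leaving out a library gave 0 to 3 miR-130 family targets higher and 1 to 2 host genes lower in ESC against DMEF, and 1 to 2 targets higher in ESC against CIMEF.

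The guide-to-passenger shift of miR-130a lay between -5.34 and -4.83 and that of miR-148b between -3.13 and -2.27 in all 11 alternatives of each, with an exact permutation p of 0.03125 over 6 courses and 0.000583 without the replicate block. All 38 alternatives of the 4 strand ratios kept their direction. Single-strand and single-gene differences kept direction and call in 816 alternatives, lost the call in 140 and changed sign in 5. Counts over all miRNAs moved too. They were 208 to 582 called in ESC against DMEF, 268 to 569 in ESC against CIMEF, 0 to 207 in CIMEF against DMEF and 3 to 244 in the knockout. Scaling standing levels and knockout EU levels to the summed standards was not run, since the standards' amounts differ between courses. For each change listed the cause was not tested unless stated. Depth limits ESC most, where early EU libraries held a few counts of miR-148b-5p and miR-152-3p.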
